A study of Danio rerio with 3 samples.

Results

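Cholesterol synthesis and uptake were examined through 7 zebrafish genes, acat2, ggps1, fdft1, cyp51, msmo1, dhcr7 and mylipa. They were chosen by their signal differences in these same arrays, from among genes of the pathway, so those differences are given as a description and carry no test. All probe sets assigned to exactly 1 of these symbols were taken. They numbered 12 of the 15502 non-control probe sets on the array. The 7 genes were among 8793 named ones.

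Scales, the thin bony plates of fish skin, were taken from anesthetized zebrafish (Danio rerio) and held in L-15 medium at 15 °C for 6 h. One array held scales kept with 3-OHBcP (3-hydroxybenzo[c]phenanthrene) at 1 nM, 1 held scales kept with BcP (benzo[c]phenanthrene, a polycyclic aromatic hydrocarbon that lacks the hydroxyl group) at 1 nM, and 1 held control scales. Nothing about the strain, age or sex of the fish, how many fish or scales went into an array, or a solvent in the control medium is given in the sources used here. The title asks about effects of such compounds on the osteoblasts and osteoclasts of scales. With 1 array per group there was no spread between replicates, so no difference below has a replicate check, a p-value or an interval.

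Cholesterol is built from acetyl-CoA. The mevalonate pathway makes farnesyl diphosphate, which is either joined into squalene and turned into sterols or lengthened into the prenyl groups that anchor proteins to membranes. In mammals, SREBP2 switches on genes of synthesis and of the LDL receptor when membranes hold little cholesterol, while the liver X receptors respond to oxysterols and raise export and the receptor's breakdown. Cells can also take up cholesterol in lipoproteins, and uptake and synthesis are balanced against each other.

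By the brightest probe set of each gene, the 5 members that make cholesterol stood higher on the 3-OHBcP array than on the other 2. The genes acat2, fdft1, cyp51, msmo1 and dhcr7 were above the control by 0.28 to 0.41 on the log2 scale with 3-OHBcP. With BcP, the same 5 differed from the control by -0.27 to -0.0059, and after quantile normalization fdft1 and msmo1 were on the other side, at 0.02 and 0.01. The prenyl branch gene ggps1 was lower than the control with both compounds by the same measure. So was mylipa, whose mammalian counterpart marks the LDL receptor for breakdown. Levels are log2 signal as the authors deposited it, and they are compared between arrays for 1 probe set at a time, never between probe sets.

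**Figure D1:**
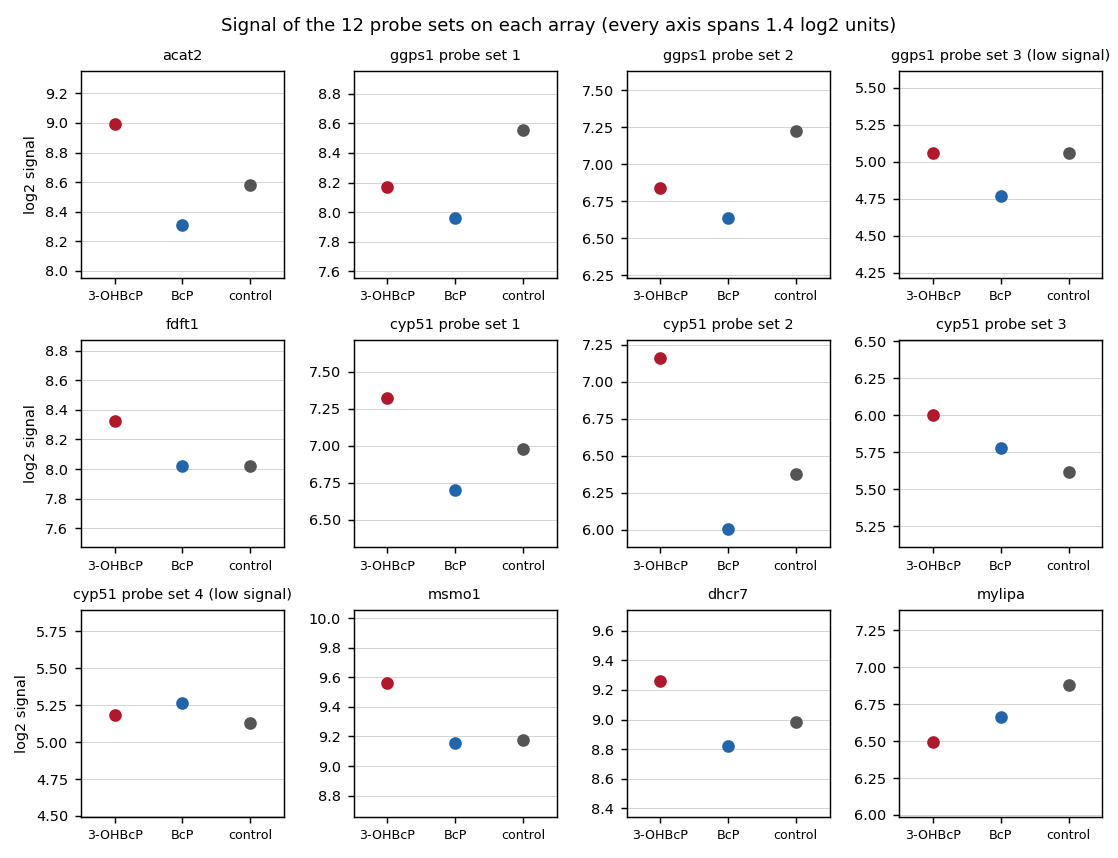
Log2 signal of each of the 12 member probe sets (1 panel each) on the 3-OHBcP, BcP and control arrays, 1 point per array, with every vertical axis spanning the same range. The 3-OHBcP point was the highest of the 3 for acat2, fdft1, msmo1 and dhcr7 and for cyp51 probe sets 1 to 3, whereas the control point was the highest for ggps1 probe sets 1 and 2 and for mylipa.

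At the entry of the pathway, acat2 encodes the thiolase that joins acetyl-CoA units into acetoacetyl-CoA. Its 1 probe set (Entrez gene 30643) read 9.00 with 3-OHBcP, 8.31 with BcP and 8.58 in the control. The control lay between the compounds, which were 0.68 apart, or 1.61-fold. Against the control, acat2 differed by 0.41 with 3-OHBcP and by -0.27 with BcP.

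The gene fdft1 encodes squalene synthase, the enzyme that commits farnesyl diphosphate to sterols. Its probe set (Entrez gene 571911) read 8.32 with 3-OHBcP, 8.02 with BcP and 8.02 in the control. The BcP and control arrays were almost equal, and the 3-OHBcP array stood apart from both by 0.31 and 0.30. No other member had all its differences within 0.31 by its brightest probe set.

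The gene cyp51 encodes the cytochrome P450 that removes a methyl group from lanosterol. It had 4 probe sets (Entrez gene 414331), numbered by falling mean signal, and they did not move alike. Probe set 1 read 7.32 with 3-OHBcP, 6.70 with BcP and 6.97 in the control. Its name ends in _x_at, the mark of probes that may match several transcripts. As the brightest, it stands for cyp51 wherever 1 probe set per gene is used. Probe set 2 read 7.16 with 3-OHBcP, 6.00 with BcP and 6.37 in the control. These 2 come from the same source sequence and are not independent. Both placed the control between the compounds, and the second gave the widest gap of any member, at 1.16 between 3-OHBcP and BcP, or 2.23-fold. With 32 added to the linear signal before log2, which damps low signals, the differences of probe set 2 were 0.61 with 3-OHBcP and -0.26 with BcP against the control.

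Probe set 3 of cyp51, from another design source, read 6.00 with 3-OHBcP, 5.78 with BcP and 5.61 in the control. Here both compounds were above the control, by 0.39 with 3-OHBcP and 0.16 with BcP, or by 0.25 and 0.10 with 32 added to the linear signal. Probe set 4, which has the same name but the opposite orientation mark, read 5.19, 5.26 and 5.13 on the 3-OHBcP, BcP and control arrays, below the signal filter of 5.35. Over the 4 probe sets, 3-OHBcP was higher than the control in 4, by 0.06 to 0.79. BcP was lower than the control in 2 and higher in 2, so the direction with BcP depended on the probe set. Probe sets 1 and 2 share a source, and probe sets 3 and 4 share a name with opposite orientation marks. They are therefore not 4 separate readings of cyp51. Which of the 4 read cyp51 mRNA was not checked.

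The gene msmo1 encodes the sterol C4-methyl oxidase, which acts after cyp51. Its probe set (Entrez gene 406662) read 9.56 with 3-OHBcP, 9.15 with BcP and 9.18 in the control. As with fdft1, the 3-OHBcP array alone stood apart, by 0.38 from the control and 0.41 from BcP. BcP and control differed by -0.02.

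The gene dhcr7 encodes the reductase of the final step to cholesterol. Its probe set (Entrez gene 378446) read 9.26 with 3-OHBcP, 8.82 with BcP and 8.99 in the control. The difference from the control was 0.28 with 3-OHBcP and -0.16 with BcP, and the compounds were 0.44 apart, or 1.35-fold.

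Off the sterol route, ggps1 encodes geranylgeranyl diphosphate synthase, which makes a lipid used to prenylate proteins. Of its 3 probe sets (Entrez gene 336798), probe set 1 read 8.17 with 3-OHBcP, 7.96 with BcP and 8.55 in the control. Probe set 2, named for another sequence cluster, read 6.84 with 3-OHBcP, 6.64 with BcP and 7.23 in the control. The pair agreed closely, at -0.38 and -0.39 against the control with 3-OHBcP and at -0.60 and -0.59 with BcP. With 32 added to the linear signal, the differences with BcP were -0.54 and -0.47. The name of probe set 2 ends in _s_at, the mark of probes shared by several transcripts. Probe set 3, named for the same cluster as probe set 2, was below the signal filter. It read 5.06 with 3-OHBcP, 4.77 with BcP and 5.06 in the control. Probe set 3 was thus lower with BcP (-0.29, or -0.14 with 32 added to the linear signal) and equal to the control with 3-OHBcP. Among the 7 genes, ggps1 was farthest below the control with BcP, and its order of arrays (control highest, BcP lowest) was shared by no other member.

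On the uptake side, mylipa is a zebrafish counterpart of the mammalian ubiquitin ligase MYLIP (Idol), which marks the LDL receptor for breakdown. Its probe set (Entrez gene 335888) read 6.50 with 3-OHBcP, 6.66 with BcP and 6.88 in the control. It was lower by 0.39 with 3-OHBcP and by 0.22 with BcP, and it was the sole member whose 3-OHBcP level was below BcP at each of its probe sets (difference -0.16).

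**Figure D2:**
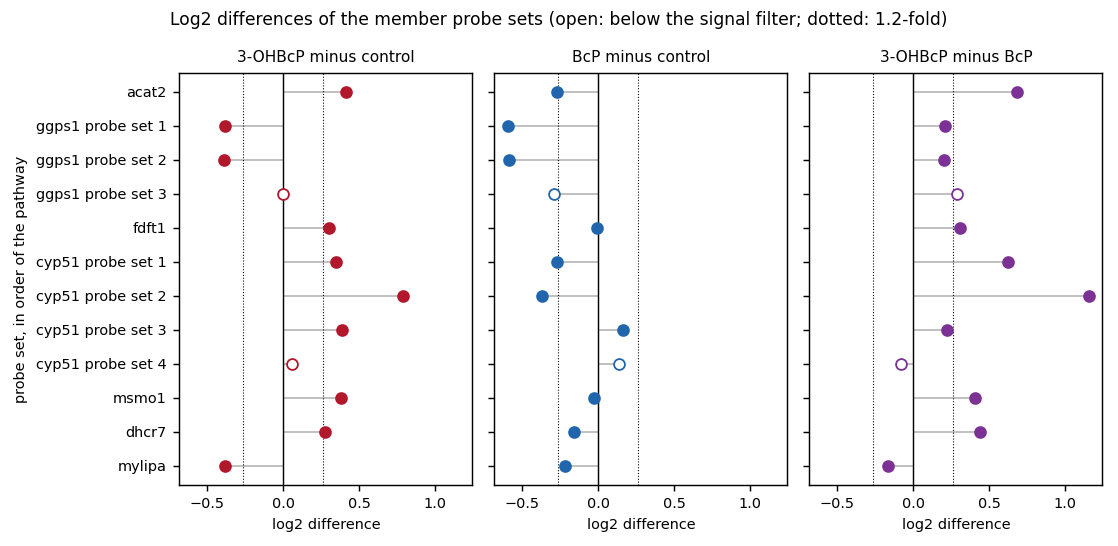
Log2 differences of the 12 member probe sets in pathway order, for 3-OHBcP minus control, BcP minus control and 3-OHBcP minus BcP. Filled points passed the signal filter, open points did not, and dotted lines mark 1.2-fold. The sterol synthesis members lie to the right in the outer panels, except cyp51 probe set 4 for 3-OHBcP minus BcP (-0.08, open point). The point of cyp51 probe set 2 lies farthest right, at 0.79 and 1.16.

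To place these sizes, the same differences were counted over the whole array. A probe set was kept when its mean log2 signal over the 3 arrays was 5.35 or more, which is the median over the array without its control probe sets. A fold of 1.2 is 0.26 on the log2 scale. That kept 7751 probe sets, among them 10 of the 12 members, and each of those 10 was above the filter on every array. In all 3 comparisons the median over kept probe sets was 0, and many were exactly equal between arrays. The members were picked for these very differences, so nothing is read from their counts.

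Of the 10 kept member probe sets, 7 were at least 1.2-fold higher with 3-OHBcP than in the control and 3 were at least 1.2-fold lower, where 2.23% and 5.43% of all kept probe sets were. Of the 7, dhcr7 was barely past that line. The count was 6 after centring, without dhcr7, and 5 with 32 added, without dhcr7 and cyp51 probe set 3. At 1.5-fold, 1 was higher and 0 were lower, beside 0.129% and 0.168% of all. With BcP against the control, 0 were at least 1.2-fold higher and 5 were at least 1.2-fold lower, beside 3.46% and 6.79%. Of those 5, acat2 and cyp51 probe set 1 were barely past that line, and with 32 added to the linear signal 2 of the 5 were past it. At 1.5-fold these were 0 and 2, beside 0.129% and 0.619%, and the 2 were the ggps1 pair. Both were barely past 1.5-fold (0.58 on the log2 scale), and after quantile normalization or with 32 added the count was 0.

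Between the compounds at the same dose and time, 6 of the 10 were at least 1.2-fold higher with 3-OHBcP than with BcP and 0 were at least 1.2-fold lower, beside 3.81% and 3.39% of all kept probe sets. At 1.5-fold, 3 were higher and 0 lower, beside 0.542% and 0.206%. Those 3 were acat2 and the first pair of cyp51 probe sets. With 32 added to the linear signal the count was 2, without cyp51 probe set 1 (0.50). The comparisons with the control share the control array, both comparisons with BcP share the BcP array, and both with 3-OHBcP share the 3-OHBcP array. The comparisons are therefore not separate evidence. No interval can be put on a difference between 2 single arrays.

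Probe sets of 1 gene gave a view of how far readings of a gene on the same arrays agreed. A difference between samples or arrays is shared by both probe sets of a pair. The gaps below do not measure it and do not replace replicates. Across 638 genes with at least 2 kept probe sets, a pair of them differed in their log2 difference by a median of 0.10 for 3-OHBcP minus control, 0.10 for BcP minus control and 0.07 for 3-OHBcP minus BcP. In 1 in 10 pairs the gap was at least 0.30, 0.33 and 0.22 in the same order. For 3-OHBcP minus BcP, cyp51 probe sets 1, 2 and 3 gave 0.62, 1.16 and 0.22, so each pair of them was more than 0.22 apart. In the same comparison ggps1 probe sets 1 and 2 gave 0.21 and 0.20. The msmo1, fdft1, dhcr7, acat2 and mylipa values rest on 1 probe set each.

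The members were set among other genes of sterol synthesis. Of 23 listed genes, 10 had a probe set under their names and 9 were kept, 5 of which are members. The genes of HMG-CoA reductase (hmgcra, hmgcrb), squalene epoxidase (sqlea, sqleb) and lanosterol synthase (lss) are not among the probe sets named in the annotation and were not analysed. Over all 9, 7 were higher, 0 lower and 2 equal with 3-OHBcP against the control, with a median of 0.28. With BcP, 1 was higher, 7 lower and 1 equal, with a median of -0.02. The split with BcP depended on the scaling, with 4 higher and 5 lower after quantile normalization and 0 higher and 9 lower with each array centred on its median. With 3-OHBcP, 9 were higher and 0 lower after quantile normalization, and 7 were higher and 2 lower after centring. Over all 5248 kept genes, 25.4% were higher and 41.9% lower with 3-OHBcP, and 37.7% were higher and 37.1% lower with BcP, with medians of 0. The 5 members among the 9 were picked for these very differences. The counts and medians of the 9 therefore follow in part from that choice, and nothing is read from them about the pathway.

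With 3-OHBcP, the 4 kept sterol synthesis genes that are not members were closer to the control than the 5 members. As the members were picked for their differences, this follows in part from that choice. The gene hmgcs1, for the HMG-CoA synthase that follows acat2, read 10.53 with 3-OHBcP, 10.38 with BcP and 10.40 in the control. The gene fdps, for farnesyl diphosphate synthase, read 8.70 with 3-OHBcP, 8.53 with BcP and 8.70 in the control, and its other probe set gave the same differences to 2 decimals for 3-OHBcP (0) and BcP (-0.17). The sterol dehydrogenase gene nsdhl read 6.75, 6.67 and 6.67 on the 3-OHBcP, BcP and control arrays. The sterol reductase and lamin B receptor gene lbr was equal with 3-OHBcP and differed by 0.04 with BcP. The median of these 4 was 0.04 with 3-OHBcP and -0.01 with BcP against the control, and 0.11 between the compounds. None was 1.2-fold apart in any comparison.

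No other kept gene of the prenyl branch was 1.2-fold apart in any comparison. Of 14 listed genes of this branch, 9 were kept with ggps1 among them, and 6 of them were exactly equal between each compound and the control. Among the 6 were dhdds, of dolichol synthesis, and fnta and fntb, the subunits of protein farnesyltransferase. Of all 5248 kept genes, 1712 were exactly equal to the control with 3-OHBcP and 1324 with BcP. Why deposited values were exactly equal was not tested, so equality is not read as a measured lack of change. The gene pggt1b, for a protein prenyltransferase subunit, differed by 0.03 with 3-OHBcP and 0.02 with BcP.

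Of 12 listed genes of SREBP control, 4 were kept, and these 4 were near the control. The gene insig1, which retains SREBP in the endoplasmic reticulum when sterols are plentiful and is itself an SREBP target in mammals, read 7.83 with 3-OHBcP, 7.81 with BcP and 7.94 in the control by its brightest probe set, at -0.11 and -0.13. Its other 2 kept probe sets were on the opposite side, at 0.06 and 0.12 with 3-OHBcP and at 0.06 and 0.05 with BcP, so insig1 had no single direction. The genes insig2, mbtps1 (the protease that first cuts SREBP) and marchf6 (a ubiquitin ligase of squalene epoxidase in mammals) lay within 0.09 of the control. The genes srebf1, srebf2 and scap are not among the named probe sets either.

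In lipoprotein uptake 7 of 15 listed genes were kept, 3 higher and 4 lower than the control with each compound. The gene npc1, for the protein that exports cholesterol from lysosomes, read 7.25 with 3-OHBcP, 7.07 with BcP and 7.50 in the control. Its order of arrays was that of ggps1, and its difference with BcP (-0.43) was larger than those of msmo1, fdft1 or mylipa in any comparison although it is not a member. The HDL receptor gene scarb1 read 6.23 with 3-OHBcP, 6.10 with BcP and 5.96 in the control, while its other probe set differed by 0.09 with each compound. The LDL receptor genes ldlra and ldlrb were not analysed here. The very low density lipoprotein receptor gene vldlr was close to the control with 3-OHBcP (0.0053) and BcP (0.06).

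Of 13 listed storage and export genes, 2 were kept. The liver X receptor gene nr1h3 read 6.13 with 3-OHBcP, 6.46 with BcP and 6.46 in the control, so it was lower by 0.34 with 3-OHBcP and equal with BcP. Apolipoprotein gene apoeb read 12.31 with 3-OHBcP, 12.41 with BcP and 12.36 in the control. Of 12 listed fatty acid synthesis genes, 4 were kept, and acsl3b, an acyl-CoA ligase gene, was the one at least 1.2-fold apart, at 5.47 with 3-OHBcP, 5.47 with BcP and 5.76 in the control. The carboxylase gene acaca differed by 0.09 with 3-OHBcP and 0.08 with BcP.

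Over the 28 kept pathway genes that are not members, 1 was at least 1.2-fold higher and 2 lower with 3-OHBcP, where 1.68% and 5.2% of all kept genes were. The 1 higher was scarb1, which was barely past that line by its brightest probe set and short of it by the other (0.09). With BcP 0 were higher and 2 lower, beside 2.93% and 6.19%, and between the compounds 0 were higher and 1 lower, beside 3.49% and 3.43%. Their median was 0 in each comparison. Since the members were taken from these lists for their differences, smaller differences in the remainder follow from that choice in part.

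**Figure D3:**
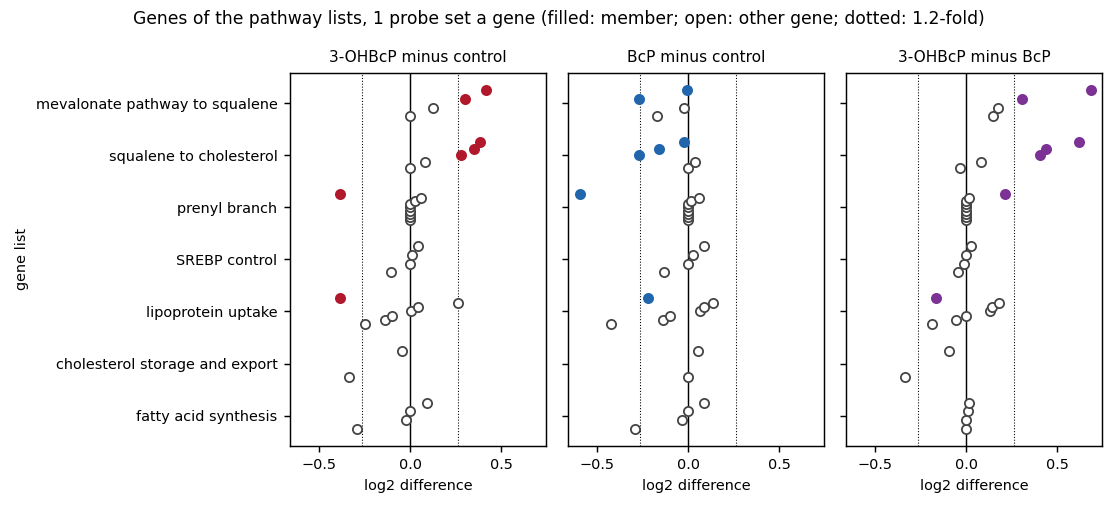
Log2 differences of the kept genes of each pathway list, with 1 probe set a gene, for 3-OHBcP minus control, BcP minus control and 3-OHBcP minus BcP. Filled points are members and open points the other genes of the list, dotted lines mark 1.2-fold, and points of 1 list are spread vertically for sight alone. The other genes of the prenyl branch and of SREBP control lie close to 0, at most 0.13 away.

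Other kept genes lay near the members in the plane of their differences from the control. The measure was the Euclidean distance over both differences, from 3 arrays, among 5213 kept genes outside the lists. Nearest to the median of the 5 sterol members (0.35 with 3-OHBcP and -0.16 with BcP) were si:ch211-140m22.7 (distance 0.02), btr30 (0.07), rhpn2 (0.08), her9 (0.08) and fdx1 (0.09). Nearest to ggps1 were gpsm2 (0.01), igf2a (0.02) and cldn23.1 (0.03). With 3 arrays such likeness is a description.

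The arrays also differed in other ways. Of all 8793 named genes, 5248 were kept. Of the scale markers, 8 of 10 osteoblast and matrix genes and 7 of 7 epidermal genes with a probe set were kept, with the osteoblast regulators sp7 and runx2b below the filter. Of the osteoclast markers 3 of 4 were kept, as were 3 of 4 of skeletal muscle, whereas 0 of 3 liver and 0 of 3 pigment cell markers were kept. All 5 kept leukocyte markers were lower with 3-OHBcP than with BcP, with a median of -0.30, and the summed linear signal of that list was 1425 with 3-OHBcP, 1795 with BcP and 1558 in the control. The osteoblast and matrix list was above the control in 6 of 8 genes with 3-OHBcP (median 0.18) and in 8 of 8 with BcP (median 0.24). With BcP, 5 of 5 leukocyte genes (median 0.22), 3 of 3 muscle genes (median 0.25) and 2 of 3 osteoclast genes (median 0.10) were above the control as well, while 0 of 7 epidermal genes were higher and 4 lower (median -0.06). With 3-OHBcP, 1 of 5 leukocyte genes was above the control and 3 were below (median -0.15). Of 3 muscle genes, 2 were higher and 1 lower (median 0.13). Of 3 osteoclast genes 1 was higher and 1 lower, and of 7 epidermal genes 1 was higher and 2 lower (both medians 0). Over all kept genes, 37.7% were higher and 37.1% lower than the control with BcP, and 25.4% were higher with 3-OHBcP. Between the compounds, 42.9% of all kept genes were lower with 3-OHBcP than with BcP. Hybridisation spikes, 18 probe sets for labelled RNA added to each sample in set amounts, differed by a median of 0.08 with 3-OHBcP and 0.29 with BcP against the control. The part of these in the members' differences was not tested. In pieces of whole tissue, fewer cells of a type and less RNA per cell cannot be told apart.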

How the data were processed

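Scale RNA of 3 groups was hybridised to Affymetrix zebrafish arrays, 1 per group. The authors deposited a single value for each probe set on each array, taken here as log2 signal because of its range, as the table has no header naming the scale. Per the submitters' processing notes, the tool was Affymetrix Expression Console, and which version, summarization and normalization it applied is not given in the sources used here. Deposited array medians were 5.35 (3-OHBcP), 5.37 (BcP) and 5.32 (control), and no further scaling was applied. Of 15617 probe sets, 115 controls were left out.

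The platform annotation gave 1 symbol to 10795 probe sets, several to 135 and none to 4572. Symbols were updated through gene IDs to a RefSeq table (GRCz12tu), which held 10711 of the 10795, and listed names were updated to it too. Its build is not tied to the arrays, so its coordinates are left out. No sequence was used.

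Differences were taken with pandas 2.3.3, and the counting was tested on simulated data. For lists, a gene was its probe set with the highest mean. Named genes were all members, listed genes at least 1.2-fold apart, hmgcs1, insig1 and the absent central genes, the nearest patterns, and listed genes added after their values were seen (fdps, nsdhl, lbr, dhdds, fnta, fntb, pggt1b, insig2, mbtps1, marchf6, vldlr, apoeb and acaca). Members, lists and tests were chosen with earlier results of these data known. The number of arrays limits the precision.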

Additional observations from a re-analysis of the deposited data

How the results depend on the processing

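Alternatives were centring each array, quantile normalization, adding 32 to the linear signal, averaging a gene's probe sets, leaving out probe sets with _s_at or _x_at names, and other signal filters. The 23 member differences of at least 1.2-fold here include those of ggps1 probe set 3, below the signal filter. They kept their sign in 69 of 69 recalculations under the first 3, and 59 stayed at least 1.2-fold. Adding 32 cannot change a sign. Centring shifted 3-OHBcP minus control by -0.03, BcP minus control by -0.05 and 3-OHBcP minus BcP by 0.02, too little to reverse one. Only quantile normalization could have changed a sign. With 3-OHBcP, the 7 probe sets at least 1.2-fold above the control were 4 with the filter at the 75th percentile, and the 3 below were 1 with that filter and 1 gene with probe sets averaged. With BcP, the 5 below the control were 3 after quantile normalization, 2 with 32 added, 2 genes with probe sets averaged, 3 without those so named and 2 with the stricter filter. The 1.2-fold counts between the compounds stayed within 1.5 times. At 1.5-fold, where the alternatives were chosen after seeing the data, the 2 below the control with BcP were 0 after quantile normalization, with 32 added and with probe sets averaged, and 1 without those so named or with the stricter filter. The 1 above it with 3-OHBcP was 0, and the 3 higher with 3-OHBcP than with BcP were 1, with probe sets averaged or the stricter filter. Stricter filters and averaging count fewer items, and otherwise the cause was not tested. The other 1.2-fold and 1.5-fold member counts stayed within 1.5 times, and the median of all sterol synthesis genes moved by at most 0.1 on the log2 scale. The median of genes from squalene to cholesterol with BcP was -0.02, and 0.01 after quantile normalization. No paired analysis was possible because each group has 1 array.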

Other observations

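The names of probe sets carry an orientation mark, A or S, and the 2 kinds differed in how often they lay below the control. Of kept probe sets with BcP, 8.52% of those marked A and 4.81% of those marked S were at least 1.2-fold lower, and 2.76% and 4.26% were at least 1.2-fold higher. Of the 10 kept member probe sets, 6 are marked A and 4 are marked S. The 5 that were lower with BcP were 3 marked A and 2 marked S, and the 7 that were higher with 3-OHBcP were 5 marked A and 2 marked S. The 3 that were lower with 3-OHBcP were 1 marked A and 2 marked S. With 3-OHBcP, 1.69% of all kept probe sets marked A and 2.85% of those marked S were at least 1.2-fold higher. At least 1.2-fold lower were 6.39% of those marked A and 4.34% of those marked S. The part of orientation in the members' differences was not tested.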
